A study of Mus musculus with 6 samples.

Results

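DNA replication and S phase genes encode the proteins that copy the genome: the loaders and motor of the replicative helicase, the polymerases, the sliding clamp, the enzymes that make deoxynucleotides, and the switch from G1 into S phase. A list of 41 such genes was followed in mouse back skin after cyclosporin A. Their probes were found through the accession that the scanner files give for each probe, and a gene with several probes is represented by its brightest. Of the 41 genes, 37 had a named probe and 36 passed the filter on dim probes, out of 22051 genes tested in all. No probe was named for Gins1, Gins2, Rfc3 or Rfc5, and Cdk2 was measured but failed the filter.

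Back skin of C57/BL mice was compared after cyclosporin A or after ethanol, its control, at 2, 4 and 7 days. Cyclosporin A is an immunosuppressant that blocks the phosphatase calcineurin, and excess hair is a common side effect of it. Each of 6 dual-colour Agilent arrays set a cyclosporin A sample in Cy5 against an ethanol sample of the same day in Cy3, with 2 arrays per day. The labels give neither the age of the mice nor the dose, and do not say which animal a sample came from, so p-values cover only the spread among the samples hybridized, which may be technical. Ratios are given as log2 of cyclosporin A over ethanol (n = 2 arrays per day, replicate 1 first), so that 1 is a doubling and a value above 0 is a higher level after cyclosporin A. The standard error (SE) is limma's, which pools the spread of all 3 days, and called means an adjusted p (Benjamini-Hochberg, over all genes tested) under 0.05.

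The median signal of an array was 203 to 277 in Cy3 and 134.5 to 187 in Cy5, and with 6 arrays their number limits the precision. On every array fewer probes were well above background in Cy3, the ethanol channel (43.6% to 56.5%), than in Cy5 (60% to 68.9%). A gene that misses this mark in ethanol alone may therefore do so through the channel. The arrays of days 2 and 4 shared a slide and those of day 7 lay on another, so slide and day 7 cannot be told apart. The dyes were never swapped, so a gene's own dye effect and treatment cannot be told apart within a day. Skin markers were present: all 8 basal keratinocyte markers and all 6 differentiated epidermis markers tested exceeded background clearly in Cy3 and Cy5 on all 6 arrays. In whole skin, a change in the number of cells of a type and a change in RNA per cell cannot be told apart.

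In G1 phase the origin recognition complex, with Cdc6 and Cdt1, loads the ring of Mcm2 to Mcm7 onto DNA, and in S phase the ring becomes the moving helicase. E2F transcription factors, released when cyclin E and other cyclins with their kinases act on the retinoblastoma family, switch on many of the genes described here. In adult skin the cells that copy their DNA lie mainly in the basal epidermis and, in growing hair follicles, in the hair matrix.

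The E2F letters recur in the promoters of this list, and of the genes with a match, the sites of those with the lowest p at day 7 are printed. Their capitals are alike by design, since only exact matches were searched for. RefSeq promoters (assembly GRCm38.p6, 250 bases before to 50 after the listed start) were at hand for 34 of the 41 genes. They were searched on both strands for the E2F forms TTTCGCGC and TTTGGCGC. A match was found in 11 of the 34 (32.4%), against 0.929% of 27025 genes in the table. The matching genes were Orc1, Cdt1, Mcm3, Mcm5, Mcm6, Mcm7, Pola1, Rfc3, Lig1, E2f2 and Uhrf1. Each window of 30 bases reads 5′ to 3′ on the gene's own strand, with the E2F letters in capitals, reversed and complemented where the match lies on the other strand.
Mcm7, chr5:138171849-138171878, minus strand: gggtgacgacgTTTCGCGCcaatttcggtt
Lig1, chr7:13278841-13278870, plus strand: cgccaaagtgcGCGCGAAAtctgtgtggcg
E2f2, chr4:136172294-136172323, plus strand: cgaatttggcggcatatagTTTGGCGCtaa
Mcm3, chr1:20820263-20820292, minus strand: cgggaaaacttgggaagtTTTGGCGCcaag
Uhrf1, chr17:56304117-56304146, plus strand: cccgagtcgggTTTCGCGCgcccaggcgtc
Pola1, chrX:93632275-93632304, minus strand: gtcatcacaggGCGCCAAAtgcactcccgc

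The sites of Mcm7, Lig1, E2f2 and Mcm3 began at positions 17, 27, 40 and 39 counted from the listed start (for Lig1 the second of its listed starts), and those of Uhrf1 (also from its second listed start) and Pola1 at -185 and -138. Mcm7, Lig1 and Uhrf1 carry the TTTCGCGC form and the other genes shown carry TTTGGCGC.

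Other promoter elements of cell cycle genes were searched in the same way. The CCAAT box, bound by NF-Y, was found in 61.8% of the 34 genes against 41.1% of all genes in the table. GGGCGG, a GC box bound by Sp1, was found in 76.5% against 38.2%. TTTGAA, the core of the cell cycle homology region of genes expressed in G2 phase and mitosis, was found in 11.8% against 20.2%. The 250 bases before the start are printed for Mcm7, where all matches of this stretch are CCAAT and GC boxes (capitals, here read as ATTGG and CCGCCC on the printed strand), and for Pola1, which holds an E2F site, 2 GC boxes and a CCAAT box.
Mcm7, chr5:138171884-138172133, minus strand: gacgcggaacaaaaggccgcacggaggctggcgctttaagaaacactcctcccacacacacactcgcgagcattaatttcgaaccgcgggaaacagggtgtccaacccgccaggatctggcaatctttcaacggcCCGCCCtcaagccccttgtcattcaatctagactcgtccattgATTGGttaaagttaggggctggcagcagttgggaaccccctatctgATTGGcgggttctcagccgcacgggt
Pola1, chrX:93632156-93632405, minus strand: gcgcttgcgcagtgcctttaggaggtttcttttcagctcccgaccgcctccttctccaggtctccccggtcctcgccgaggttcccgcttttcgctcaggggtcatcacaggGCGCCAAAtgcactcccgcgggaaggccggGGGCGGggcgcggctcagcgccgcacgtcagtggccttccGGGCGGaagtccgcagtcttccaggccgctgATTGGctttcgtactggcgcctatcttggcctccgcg

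At day 7 the median log2 ratio was 0.89 over the 10 tested members with a match (0.32 to 1.41, 5 called) and 0.91 over the 21 without (0.16 to 1.29, 11 called). A match describes letters and not a bound factor.

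The replication genes were higher after cyclosporin A at day 7. Of the 36 tested, 19 were called higher and 0 lower, against 2.37% of all genes called higher (523) and 0.658% called lower (145). All 36 means lay above 0, from 0.16 for Rpa2, a subunit of the single-strand binding complex, to 1.41 for Uhrf1, which brings the maintenance DNA methyltransferase to copied DNA. At an unadjusted p under 0.05 there were 31, against 13.7% of all genes, and 32 were above 0 on both arrays, against 38.2%. Their median was 0.90, where the median of all genes was 0.029. The log2 ratio passed 0.5 in 30 members, 0.75 in 24 and 1 in 13, against 5.84%, 2.6% and 1.47% of all genes. The count of calls was 0 without day 7 replicate 2, 1 without day 7 replicate 1, 2 without either day 4 array, and 18 without either day 2 array. It was 3 and 5 with the processed signals and the ratios of the scanner software, 7 with scale normalization, 11 with days 2 and 4 fitted apart from day 7, and 31 with median centring, which moved the median of all genes to 0.401, 0.279 and 0.172 at days 2, 4 and 7 and called 4343 of all genes higher (19.7%) and 563 lower; with the software's ratios these were 254 and 24.

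**Figure D1:**
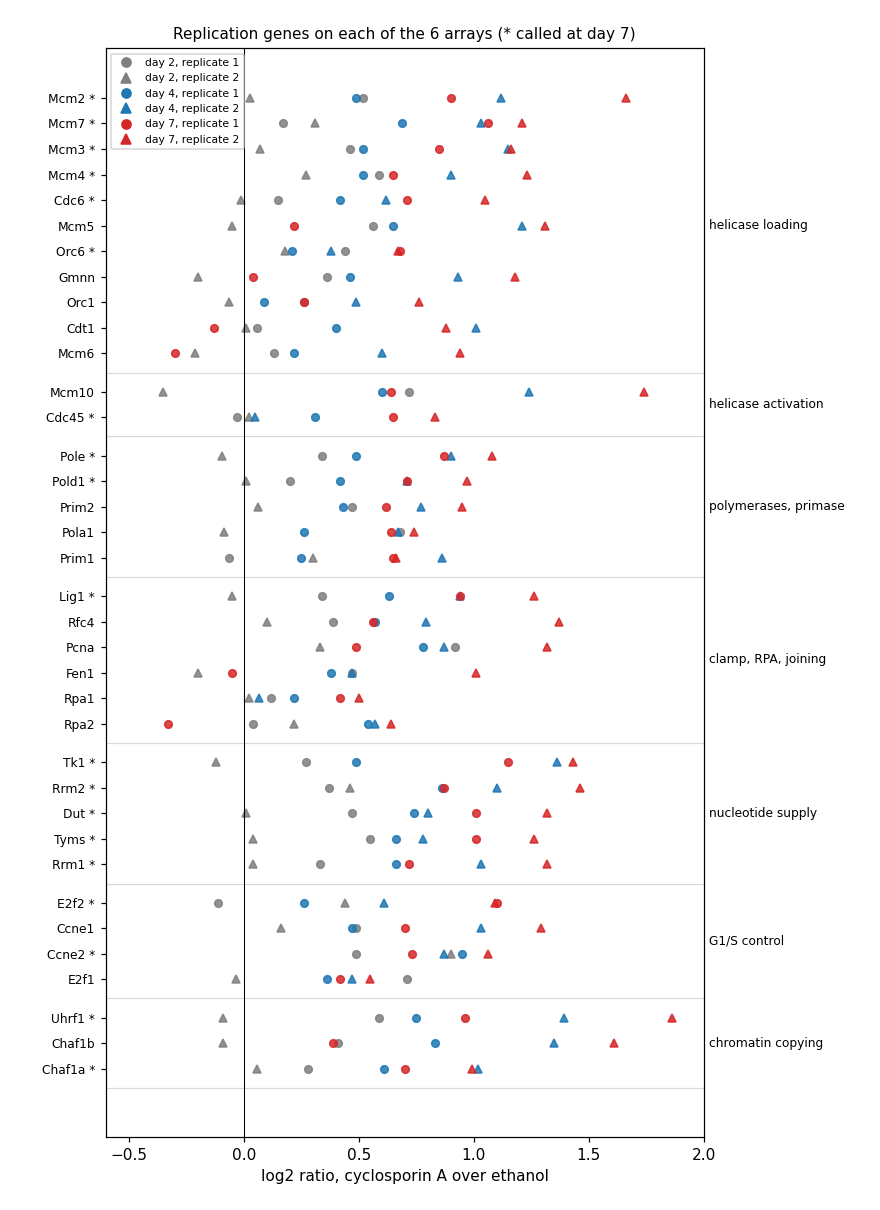
Log2 ratio of cyclosporin A over ethanol of each of the 36 genes on each of the 6 arrays, grouped by role and ordered within a role by the day 7 mean. Colours are days, circles replicate 1 and triangles replicate 2; day 7 points lie mostly to the right, up to 1.86 for Uhrf1 on day 7 replicate 2, while 4 genes (Mcm6, Cdt1, Fen1 and Rpa2) lie below 0 on day 7 replicate 1.

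Among the 11 genes that load the helicase at origins, 6 were called at day 7 and the group median was 0.77, after 0.24 at day 2 and 0.70 at day 4. The ring subunits Mcm2, Mcm3, Mcm4 and Mcm7 were among the 6, while Mcm5 and Mcm6 were not. Mcm7 gave log2 ratios of 0.17 and 0.31 at day 2, 0.69 and 1.03 at day 4, and 1.06 and 1.21 at day 7. Its 3 days did not overlap, and the day 7 mean of 1.14 (SE 0.13) was a 2.2-fold difference with an adjusted p of 0.0133, the lowest of the 36. Mcm2 gave 0.52 and 0.027 at day 2, 0.49 and 1.12 at day 4, and 0.90 and 1.66 at day 7. Its day 7 mean of 1.28 (SE 0.24, 2.43-fold, adjusted p = 0.0446) was the highest of the ring, although day 4 replicate 2 exceeded day 7 replicate 1.

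Mcm3 gave 0.46 and 0.073 at day 2, 0.52 and 1.15 at day 4, and 0.85 and 1.16 at day 7 (mean 1.01, SE 0.19, 2.01-fold, adjusted p = 0.0449). Mcm4 gave 0.59 and 0.27, then 0.52 and 0.90, then 0.65 and 1.23 on the same days (day 7 mean 0.94, SE 0.18, 1.92-fold, adjusted p = 0.0477). The dimmer probe of Mcm3 gave lower means of 0.13, 0.43 and 0.61 at days 2, 4 and 7, and with the mean of both probes Mcm3 was not called (0.81, adjusted p = 0.109). For Mcm3 and Mcm4, the day 7 arrays lay above the day 2 arrays and overlapped those of day 4. Mcm6 had the lowest mean of the group, with 0.13 and -0.21 at day 2, 0.22 and 0.60 at day 4, and -0.30 and 0.94 at day 7. Its day 7 arrays lay on opposite sides of 0, and the mean of 0.32 (SE 0.28, adjusted p = 0.526) was not called. Mcm5 had a similar spread, from 0.22 to 1.31 at day 7 (mean 0.77, SE 0.28, adjusted p = 0.184).

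The loaders themselves were called in part. Orc6, a subunit of the origin recognition complex, gave 0.44 and 0.18 at day 2, 0.21 and 0.38 at day 4, and 0.68 and 0.67 at day 7, the smallest gap between day 7 arrays of all 36 (mean 0.68, SE 0.12, 1.6-fold, adjusted p = 0.0401). Its days 2 and 4 overlapped, and day 7 stood above both. Cdc6, which joins the complex to the ring, gave 0.15 and -0.012 at day 2, 0.42 and 0.62 at day 4, and 0.71 and 1.05 at day 7 (mean 0.88, SE 0.13, 1.84-fold, adjusted p = 0.0264). Its 3 days did not overlap, but in ethanol skin it was well above background on 1, 2 and 1 of the 2 arrays of days 2, 4 and 7, so its ratio rests on a dim control signal. Its second probe gave a day 7 mean of 0.81.

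Orc1, the large subunit of the origin complex, was not well above background on any ethanol array. Its fitted fold of cyclosporin A over ethanol was 1.07, 1.22 and 1.42 at days 2, 4 and 7. At day 2 its arrays lay on opposite sides of 0, with 0.26 and -0.063. The ethanol side of these folds is a signal not well above background, and a dye bias could move them. The fitted day 7 ratio of Orc1 was 0.51 (SE 0.17, adjusted p = 0.163), from 0.26 and 0.76. Cdt1, the other loader, gave -0.13 and 0.88 at day 7, and Gmnn, whose product geminin holds Cdt1 back in S phase, gave 0.039 and 1.18. Neither was called (adjusted p = 0.412 and 0.26), and for both the day 4 arrays lay above the day 2 arrays.

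Of the 4 genes that turn the loaded ring into a moving helicase, Cdc45 and Mcm10 were measured. Cdc45, a fixed part of the moving helicase, gave -0.031 and 0.025 at day 2, 0.31 and 0.047 at day 4, and 0.65 and 0.83 at day 7. Its days did not overlap, and the day 7 mean of 0.74 (SE 0.12, 1.67-fold) was called with an adjusted p of 0.0339. In ethanol skin it was well above background on 0, 1 and 1 of the 2 arrays of days 2, 4 and 7. Mcm10, which helps the helicase to start, gave 0.72 and -0.35 at day 2, 0.60 and 1.24 at day 4, and 0.64 and 1.74 at day 7. Its arrays of a day stood far apart throughout, and its higher day 7 mean of 1.19 (SE 0.34, adjusted p = 0.118) was not called.

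The 5 genes of polymerases and primase had a median of 0.12 at day 2, 0.56 at day 4 and 0.78 at day 7, with 2 called. These were the catalytic subunits of the leading and lagging strand enzymes. Pole, of the leading strand polymerase, gave 0.34 and -0.093 at day 2, 0.49 and 0.90 at day 4, and 0.87 and 1.08 at day 7 (mean 0.98, SE 0.16, 1.97-fold, adjusted p = 0.0334). Pold1, of the lagging strand polymerase, gave 0.20 and 0.012, then 0.42 and 0.71, then 0.71 and 0.97 (day 7 mean 0.84, SE 0.13, 1.79-fold, adjusted p = 0.0313), and its second probe gave 1.05. In both genes day 2 lay below days 4 and 7, which met or overlapped. Prim1, the primase that starts each strand with RNA, had the lowest mean of the group. It gave -0.064 and 0.30 at day 2, 0.25 and 0.86 at day 4, and 0.65 and 0.66 at day 7 (mean 0.66, SE 0.17, adjusted p = 0.101). Its partner Prim2 and Pola1, the polymerase that extends the primer, had means of 0.78 and 0.69 (adjusted p = 0.0564 and 0.12).

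The clamp, its loader, the single-strand binding complex and the joining enzymes were the group with the fewest calls for its size, 1 of 6, and a median of 0.69 at day 7. Lig1, the ligase that seals the lagging strand, was the 1 called. It gave 0.34 and -0.05 at day 2, 0.63 and 0.94 at day 4, and 0.94 and 1.26 at day 7 (mean 1.10, SE 0.16, 2.15-fold, adjusted p = 0.0217). Day 2 lay apart from the later days, which met. Rpa2 had the lowest mean of all 36 genes. It gave 0.041 and 0.22 at day 2, 0.54 and 0.57 at day 4, and -0.33 and 0.64 at day 7 (mean 0.16, SE 0.22, 1.11-fold, adjusted p = 0.701).

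Rpa1, the large subunit of the same complex, gave 0.42 and 0.50 at day 7 (mean 0.46, SE 0.11, adjusted p = 0.0862), with both arrays above those of days 2 and 4. Pcna, the sliding clamp, was already high at day 2 with 0.92 and 0.33, and gave 0.78 and 0.87 at day 4 and 0.49 and 1.32 at day 7. Its 3 days overlapped, and its day 7 mean of 0.91 (SE 0.22, 1.87-fold, adjusted p = 0.0884) was not called. Rfc4, of the clamp loader, had a day 7 mean of 0.96 (SE 0.20, adjusted p = 0.0597). Fen1, which trims the flaps between lagging strand pieces, gave -0.049 and 1.01 at day 7 (mean 0.48, SE 0.26, adjusted p = 0.328).

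The 5 genes of nucleotide supply were all called at day 7, with means from 1.02 to 1.29 and a median of 1.16, after 0.24 at day 2 and 0.85 at day 4. Tk1, the thymidine kinase of S phase, had the highest mean. It gave 0.27 and -0.12 at day 2, 0.49 and 1.36 at day 4, and 1.15 and 1.43 at day 7 (mean 1.29, SE 0.22, 2.45-fold, adjusted p = 0.0352). Rrm1 and Rrm2 encode the subunits of ribonucleotide reductase, which makes deoxynucleotides. Rrm2, the subunit made in S phase, gave 0.37 and 0.46 at day 2, 0.86 and 1.10 at day 4, and 0.87 and 1.46 at day 7 (mean 1.16, SE 0.16, 2.24-fold, adjusted p = 0.0215). Rrm1 had the lowest mean of the group, with 0.33 and 0.039, then 0.66 and 1.03, then 0.72 and 1.32 (day 7 mean 1.02, SE 0.18, 2.03-fold, adjusted p = 0.0391).

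Tyms, which makes thymidylate, gave 0.55 and 0.041 at day 2, 0.66 and 0.78 at day 4, and 1.01 and 1.26 at day 7 (mean 1.14, SE 0.15, 2.2-fold, adjusted p = 0.0194). Dut, which clears dUTP and supplies the precursor for thymidylate, gave 0.47 and 0.009, then 0.74 and 0.80, then 1.01 and 1.32 (day 7 mean 1.16, SE 0.15, 2.24-fold, adjusted p = 0.0176). In Tyms and Dut the 3 days did not overlap, and in Tk1, Rrm1 and Rrm2 days 4 and 7 did. The dimmer probes of Tyms and Dut gave day 7 means of 0.80 and 1.06, and with the mean of both probes Tyms was not called (0.97, adjusted p = 0.0592).

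Of the 4 tested genes of G1/S control, E2f2 and Ccne2 were called. E2f2, an activating member of the E2F family, gave -0.11 and 0.44 at day 2, 0.26 and 0.61 at day 4, and 1.10 and 1.09 at day 7 (mean 1.09, SE 0.16, 2.14-fold, adjusted p = 0.0247). Its first days overlapped, and both day 7 arrays stood above them. E2f1, another activating member, had the lowest mean of the group, and its days overlapped: 0.71 and -0.032 at day 2, 0.36 and 0.47 at day 4, and 0.42 and 0.55 at day 7 (mean 0.49, SE 0.18, adjusted p = 0.183). Its dimmer probe gave 0.039 at day 7. Whether E2f1 and E2f2 differ was not tested.

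Ccne1 and Ccne2 encode cyclin E, the partner of Cdk2 at the start of S phase. Ccne2 was the highest of the 36 at day 2, with 0.49 and 0.90, and gave 0.95 and 0.87 at day 4 and 0.73 and 1.06 at day 7 (day 7 mean 0.89, SE 0.15, 1.86-fold, adjusted p = 0.0334). Its 3 days overlapped. A second probe of nearly the same signal gave lower means of 0.39, 0.34 and 0.71 at days 2, 4 and 7, where the probe used gave 0.70, 0.91 and 0.89; on it, Ccne2 lay below Pcna at day 2. The probe used was well above background on 0, 1 and 1 of the 2 ethanol arrays of days 2, 4 and 7. At day 2 its fitted fold of cyclosporin A over ethanol was 1.62. Ccne1 had a day 7 mean of 0.99 (SE 0.20, adjusted p = 0.0548), and 0.47 on its dimmer probe. Cdk2 itself was read by a pair of probes that were dim and differed in sign, with day 7 means of 0.40 and -0.24; the brighter was well above background on 1 array of each day and the other on 0.

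The chromatin genes had the highest group median at day 4, 1.07, and 1.00 at day 7. Uhrf1 had the highest mean of all 36 genes at day 7, with 0.59 and -0.092 at day 2, 0.75 and 1.39 at day 4, and 0.96 and 1.86 at day 7 (mean 1.41, SE 0.27, 2.66-fold, adjusted p = 0.0484). Its second probe gave 1.42. Chaf1a and Chaf1b belong to chromatin assembly factor 1, which places histones on new DNA. Chaf1a had the lowest mean of the group, with 0.28 and 0.057, then 0.61 and 1.02, then 0.70 and 0.99 (day 7 mean 0.85, SE 0.15, 1.8-fold, adjusted p = 0.0389). Chaf1b had the highest day 4 mean of the 36, 1.09 (SE 0.29, adjusted p = 0.213), and a day 7 mean of 1.00 from 0.39 and 1.61 (SE 0.29, adjusted p = 0.124). In Uhrf1 and Chaf1a day 2 lay apart from the later days, which overlapped.

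**Figure D2:**
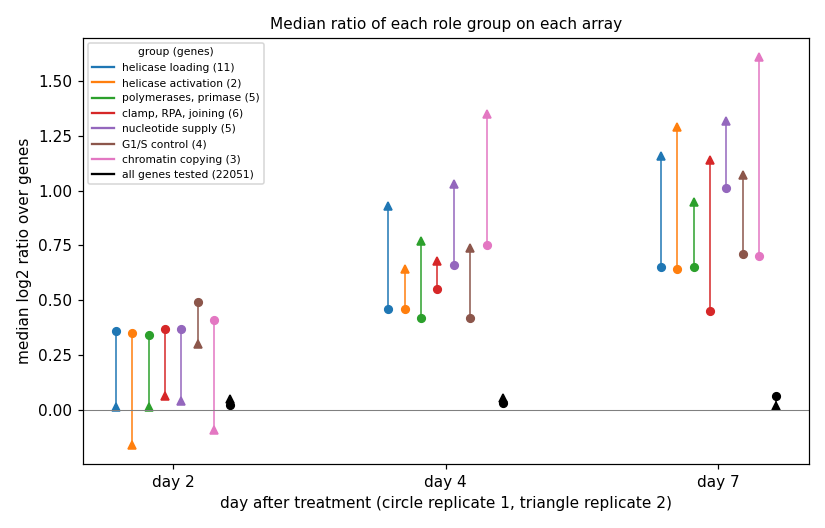
Median log2 ratio of the tested genes of each role group on each array, with circles for replicate 1, triangles for replicate 2 and a line joining the arrays of a day; black shows all 22051 genes. Every group lies above the black points at days 4 and 7, chromatin copying reaches 1.61 on day 7 replicate 2, and all genes stay between 0.014 and 0.062.

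At day 4 none of the 36 was called by limma, against 0.00453% of all genes called higher, and the lowest adjusted p was 0.182. The values were nonetheless above 0 on both arrays for all 36, which held for 38.8% of all genes, and 29 members had an unadjusted p under 0.05, against 10.5% of all genes. The median was 0.71, the range 0.14 (Rpa1) to 1.09 (Chaf1b), and the median of all genes 0.039. With median centring, 32 members and 23.7% of all genes were called.

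At day 2 no member was called, against 0% of all genes, and 5 members had an unadjusted p under 0.05, against 6.73% of all genes. The median was 0.19 and that of all genes 0.036. The means of 34 members lay above 0, and 19 of 36 were above 0 on both arrays, against 33.1% of all genes. Ccne2 (0.70) and Pcna (0.63) had the highest means. With median centring, 22 members and 36.1% of all genes were called.

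The change of the ratio between days was tested directly, where a constant dye effect cancels. From day 2 to day 7 the ratio had a higher mean in all 36 members (median difference 0.70), but limma called 0 of them, against 0.254% of all genes, and 18 had an unadjusted p under 0.05, against 3.85%. Mcm7 had the lowest adjusted p of this difference (0.90, SE 0.18, adjusted p = 0.289). From day 2 to day 4 the difference was above 0 in 35 members (median 0.45, the highest 0.93 in Chaf1b) with 0 called, against 0%, and 10 at an unadjusted p under 0.05, against 1.29%. From day 4 to day 7 it was above 0 in 29 members (median 0.23) with 0 called, against 0.181%, and 2 at an unadjusted p under 0.05, against 2.2%. A rise of the ratio from day to day was therefore not called in any of the 36, and the day 4 and day 7 ratios of the members correlated at r = 0.66 across genes, where all genes gave 0.54; genes are not independent replicates.

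The channels were then taken apart to see on which side the levels moved. The levels are log2 intensities, set to 1 scale across arrays by the mean of both channels. In ethanol skin the median difference between day 7 and day 2 was 0.083 and 25 of 36 were above 0 (0.024 and 21 without day 2 replicate 1, 0.14 and 29 without day 2 replicate 2, 0.14 and 28 without day 7 replicate 2). There limma called 0, against 0.0317% of all genes, with 3 at an unadjusted p under 0.05, against 5.97%. In cyclosporin A skin the same difference was above 0 in all 36, with a median of 0.76. These were 30 and 0.54 without day 7 replicate 2, and 35 and 0.59 without day 2 replicate 2. They were 36 and 0.97 without day 7 replicate 1, and 36 and 0.86 without day 2 replicate 1. In the full fit 2 were called, against 0.862% of all genes, and 23 had an unadjusted p under 0.05, against 7.62%.

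Tk1 and Mcm7 were the 2 called. The log2 level of Tk1 in cyclosporin A skin was 9.87 and 9.75 at day 2, 10.21 and 10.67 at day 4, and 11.20 and 11.26 at day 7, a rise of 1.42 (SE 0.19, adjusted p = 0.0244). In ethanol skin it was 9.61 and 9.86, then 9.72 and 9.32, then 10.05 and 9.83. The cyclosporin A arrays of the 3 days did not overlap, and both of day 7 stood above every ethanol array. Mcm7 stood at 11.36 and 11.21, then 11.60 and 11.85, then 12.41 and 12.62 in cyclosporin A skin, a rise of 1.23 (SE 0.17, adjusted p = 0.0272). In ethanol skin it was 11.19 and 10.90, then 10.91 and 10.82, then 11.35 and 11.41. Both calls were lost without day 2 replicate 1 or without day 2 replicate 2 (0 called in each case), and 5 members were called without day 7 replicate 1.

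**Figure D3:**
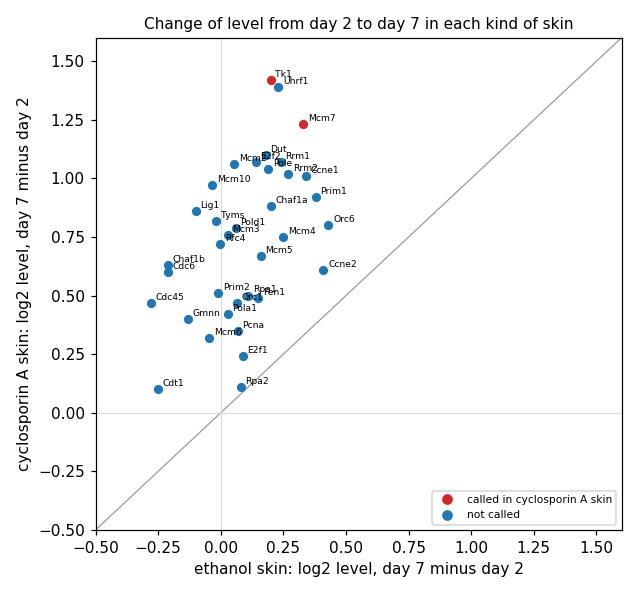
Difference of the log2 level between day 7 and day 2 for each of the 36 genes, in ethanol skin on the horizontal axis and in cyclosporin A skin on the vertical axis; the line marks equal change. All points lie above the line, from 0.10 (Cdt1) to 1.42 (Tk1) on the vertical axis, while ethanol values run from -0.28 to 0.43.

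From day 2 to day 4 the cyclosporin A level was higher in all 36 (median 0.38) with 0 called, against 0%, and the ethanol level had a median difference of -0.10, also with 0 called, against 0.00454%; 7 and 0 had an unadjusted p under 0.05 and a positive difference, against 1.02% and 4.92% of all genes. From day 4 to day 7 the medians were 0.36 in cyclosporin A skin, above 0 in 34 of 36, and 0.12 in ethanol skin, above 0 in 33 of 36. Neither was called in any member (0.34% and 0.0227% of all genes were), and 14 and 9 had an unadjusted p under 0.05, against 5.83% and 4.97% of all genes. Uhrf1 moved as far as Tk1 in cyclosporin A skin, by 1.39, with a wider error (SE 0.36, adjusted p = 0.158).

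The arrays of a day differed in the size of the ratio over most members at once. Replicate 2 gave the higher ratio in 33 of 36 members at day 4 and in 34 at day 7, and the lower in all but 7 at day 2. Among all genes, replicate 2 was higher in 53.9%, 51% and 43.5% at days 2, 4 and 7. The member medians on the 6 arrays were 0.38 and 0.024, then 0.49 and 0.87, then 0.66 and 1.12. At day 7 the gap exceeded 1 in 7 members, against 2.06% of all genes, and was widest in Mcm6 (1.24). On day 7 replicate 1, 32 members lay above 0, and on replicate 2 all 36 did.

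**Figure D4:**
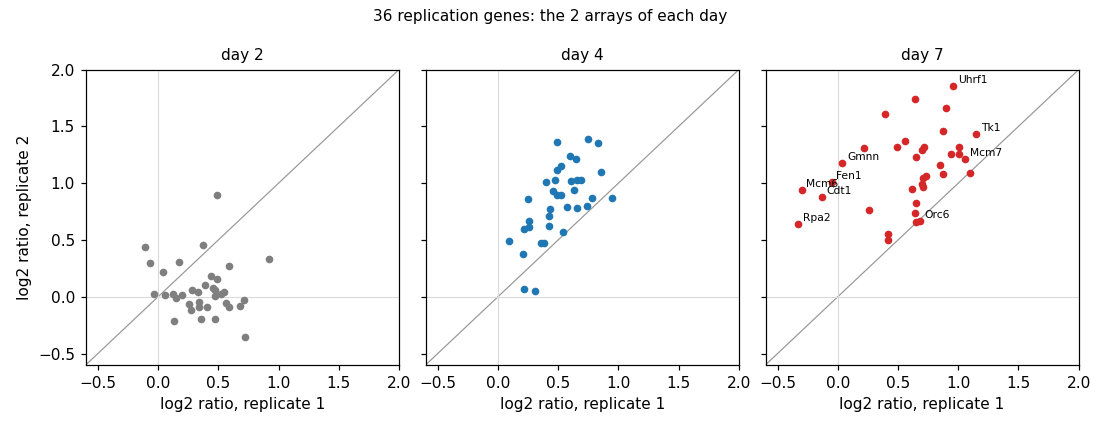
Log2 ratio of the 36 genes on replicate 1 (horizontal) against replicate 2 (vertical) of each day, with the line of equal values. Most points lie above the line at days 4 and 7 (33 and 34 of 36) and below it at day 2 (all but 7), and Mcm6, Cdt1, Rpa2 and Fen1 lie left of 0 at day 7.

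Other genes of the same processes were taken from lists that do not hold the 36. Of all genes, 2.37% were called higher at day 7, the share to set beside the counts of each list. Of 19 tested mitosis genes, 13 were called higher at day 7 (median 1.33). Aurka, a kinase of the spindle poles, had a mean of 1.38 (SE 0.14, adjusted p = 0.00864). Cdc20, which activates the anaphase ubiquitin ligase, had 1.53 (SE 0.16, adjusted p = 0.00884), and Kif11, a spindle motor, had 1.17 (SE 0.13, adjusted p = 0.0104). Of 15 genes of the S phase checkpoint and chromatin, 5 were called (median 0.65). They included Ung, which removes uracil from DNA (1.08, adjusted p = 0.0114), and Brca1, which acts in the repair of DNA breaks (1.48, adjusted p = 0.0231).

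Of 32 other replication genes, 4 were called, with a median of 0.35, below that of the 36. Ssrp1, a histone chaperone subunit, had a mean of 0.69 (adjusted p = 0.0323), Dbf4, the activator of the kinase that fires origins, 0.76 (adjusted p = 0.0389), and Recql4, a helicase of origin firing, 0.86 (adjusted p = 0.0414). Of 12 other genes of nucleotide supply, 2 were called (median 0.64). The means of 9 of the 12 lay above 0, and the lowest was -0.40 in Tk2 (adjusted p = 0.107). Ctps, which makes CTP, gave 0.66 and 0.46 at day 2, 0.71 and 0.80 at day 4, and 1.68 and 1.64 at day 7 (mean 1.66, SE 0.11, 3.16-fold, adjusted p = 0.00138). Cad, the first enzyme of pyrimidine synthesis, had 0.91 (adjusted p = 0.0391), and Dtymk, the thymidylate kinase, 1.22 (adjusted p = 0.0589).

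Among 18 other genes of G1/S control, 4 were called (median 0.29). E2f7 and E2f8, atypical repressing members of the E2F family, had means of 1.02 (adjusted p = 0.0154) and 0.71 (adjusted p = 0.0361), and Rbl1, a retinoblastoma relative, had 0.73 (adjusted p = 0.0355). Of the other repressing members, E2f4, E2f5 and E2f6 had means of 0.25, 0.17 and 0.092 and were not called (adjusted p = 0.265, 0.432 and 0.708). The 6 tested inhibitors of cyclin-dependent kinases had a median of -0.052, and limma called 0 of them. At an unadjusted p under 0.05, 1 was higher, against 13.7% of all genes. That was Cdkn2c (0.83, SE 0.20, adjusted p = 0.0835), with 0.86 and 0.81 at day 7. The means of the others were 0.17 for Cdkn2d, -0.10 for Cdkn1b, -0.006 for Cdkn1a, -0.13 for Cdkn2b and -0.33 for Cdkn1c (adjusted p = 0.371, 0.76, 0.985, 0.754 and 0.309), where Cdkn1a, Cdkn2b and Cdkn1c turned above 0 with median centring (0.47, 0.32 and 0.13). At days 2 and 4 none of the genes of these lists was called.

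**Figure D5:**
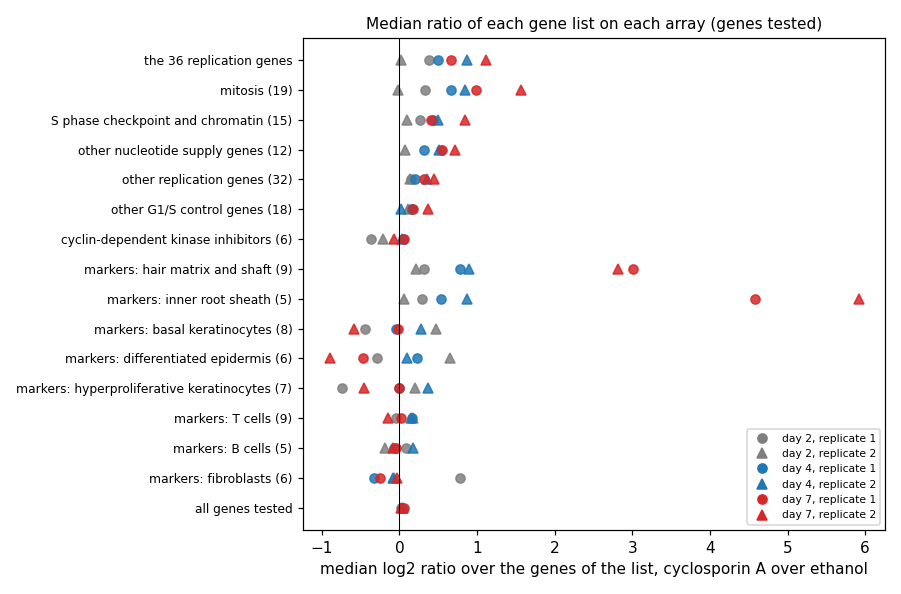
Median log2 ratio over the genes of each list on each of the 6 arrays, with the number of tested genes in brackets, colours for days and shapes for replicates. The 36 replication genes reach 1.12 and mitosis genes 1.57, kinase inhibitors lie between -0.37 and 0.058, and markers of hair matrix and inner root sheath reach 3.01 and 5.92 at day 7.

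Most markers of hair-forming cells were also higher at day 7. At day 4 the median was already 0.86 for hair matrix and shaft markers and 0.70 for inner root sheath markers, beside 0.71 for the replication genes. There 1 inner root sheath marker was called higher, against 0.00453% of all genes. From day 2 to day 4 the median difference was 0.32 for hair matrix and shaft markers and 0.71 for inner root sheath markers. From day 4 to day 7 it was 2.28 and 4.13. The replication genes gave 0.45 and 0.23 over the same steps. Of 10 hair matrix and shaft markers listed, 9 were tested and 9 were called higher at day 7, against 2.37% of all genes. Their array medians were 0.32 and 0.21 at day 2, 0.78 and 0.89 at day 4, and 3.01 and 2.82 at day 7. Their mean log2 level ran from 6.84 to 7.66 over the ethanol arrays and from 7.14 to 10.72 over the cyclosporin A arrays. Of the 9, 0 exceeded background clearly in both channels of every array. The filter asked for 1 bright channel only, so these markers could pass it through cyclosporin A skin alone, where their level was higher. The count of 9 is therefore not free of the filter. Of 8 inner root sheath markers listed, 5 were tested and 4 were called higher, against the same 2.37%, with array medians of 4.58 and 5.92 at day 7. Of the 5, 1 exceeded background clearly in both channels of every array. The others could likewise pass the filter through 1 channel alone, so the count of 4 is not free of the filter either. Their mean log2 level ran from 8.15 to 10.45 in ethanol and from 8.19 to 14.60 in cyclosporin A skin. The part of these cells in the ratios of the replication genes was not tested. Between the day 7 arrays the hair matrix medians were close (3.01 and 2.82). Their mean levels were 10.72 and 10.54 in cyclosporin A skin and 7.66 and 7.46 in ethanol skin. The inner root sheath median and the replication median (0.66 and 1.12) were higher on replicate 2. Whether these lists move together between arrays was not tested.

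Of the tested markers of other dividing or infiltrating cells, none was called higher at day 7, against 2.37% of all genes. With lists this short, a count of 0 is near that share. The 8 basal keratinocyte markers had array medians of -0.018 and -0.58 at day 7, with 0 called higher and 1 lower, and the 7 markers of hyperproliferative keratinocytes had -0.012 and -0.46. The 9 T cell markers gave 0.022 and -0.15, with 0 called, and 0 of the 5 B cell markers exceeded background clearly in both channels of every array. Some marker lists had lower ratios, where 0.658% of all genes were called lower at day 7. Of 7 skeletal muscle markers, 3 were called lower at day 7, with list medians of -0.64 at day 4 and -0.73 at day 7. Of 6 differentiated epidermis markers, 1 was called lower (median -0.69 at day 7, from -0.47 and -0.90 on its arrays). The 5 macrophage markers had a median of -0.58 with 0 called by limma. Of these 5, 2 were lower at an unadjusted p under 0.05, against 8.42% of all genes. The part of these cells in the ratios of the replication genes was not tested.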

How the data were processed

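Total RNA was labelled and hybridized to 6 dual-colour arrays, with cyclosporin A in Cy5 and ethanol in Cy3, per the labels. The deposited scanner files give each spot's median intensity and processed intensity in both channels. Per the submitters' processing notes they were made with Agilent Feature Extraction 9.1. The authors' deposited table holds log10 ratios of Cy5 over Cy3 and was checked against the same column in the scanner files (largest difference 0). The array's genome build is not given in the sources used here.

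From the deposited median intensities, 1639 control spots and 15 to 126 outlier spots per array were left out. Background was corrected with normexp (offset 50) and log2 ratios were normalized by loess within arrays (limma 3.58.1, R 4.3.3). The filter kept 27947 of 41174 probes, those clearly brighter than background in at least 1 channel on the 2 arrays of some day. A RefSeq table (GRCm38.p6) named 22951 probes by accession and 67 by symbol or synonym, and 18156 had no symbol. One mean per day was fitted to all 6 arrays with limma and Benjamini-Hochberg adjustment; channels were fitted alone after Aquantile normalization. On simulated data for the day 7 comparison (22051 genes), 91% of 2-fold and 99% of 4-fold changes were called, with 15 false calls. The simulated noise was independent between genes, whereas the replication genes shifted together on an array. These shares therefore do not give the power for them.

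The members and lists were chosen with earlier results of these data known. Array values are given for called members, the highest and lowest of each role group, and those with dim or disagreeing probes; other lists by counts, their 3 genes with the lowest p, and all kinase inhibitors; 1 gene that this rule names is not reported here. Alternatives were other signals, normalizations, filters, probe rules, slides and replicates. Replicate numbers are those of the titles.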

Additional observations from a re-analysis of the deposited data

How the results depend on the processing

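The count of replication genes called at day 7, 19, was within 1.5 times with no background correction (17), with no filter on dim probes (15), with genes above background in both channels (15) and with the mean of a gene's probes (17). It was 3 with processed signals, 5 with deposited ratios, 31 with median centring, 7 with scale normalization, 11 within slide, 6 with the replicate number as a block, and 0 to 18 with an array left out, where the lone array of a day is assumed to vary like the others. The cause of these losses was not tested; all genes called higher fell too, from 523 to 112 and 129 without a day 7 array. Median centring gave 22 calls at day 2 and 32 at day 4, and medians of 0.82, 1.15 and 1.34; elsewhere both counts were 0. The calls in cyclosporin A skin between days 2 and 7 were 0 with the replicate block and 0 to 5 with an array left out. The replicate block changed no other count of replication genes called; over all genes it took the day 7 calls from 523 higher and 145 lower to 264 and 58, and the day 4 calls from 1 to 0. By correlation, same-numbered arrays did not deviate together (r = 0.005, -0.28 and -0.022 between days 2 and 4, 2 and 7, and 4 and 7), so the numbers were not taken as pairs. Among the 36 replication genes, however, replicate 2 was the higher in 33 at day 4 and 34 at day 7, and in 7 at day 2. Without a day 7 array, Cdt1 ran from -0.13 to 0.88, Mcm6 from -0.30 to 0.94, Rpa2 from -0.33 to 0.64 and Fen1 from -0.049 to 1.01, below 0 without replicate 2. Cdkn1a turned to 0.47 with median centring and 0.003 with no background correction and ran from -0.17 to 0.16 with an array left out, and Cdkn1c and Cdkn2b to 0.13 and 0.32 with median centring. The ratios of Orc1, Cdc6, Cdc45 and Ccne2 rest on an ethanol signal that was not well above background on some or all arrays.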
